A study of Mus musculus with 4 samples.

Results

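The comparison described here set mice with both angiotensin II hypertension and photothrombotic stroke (HT + Stroke) against mice with neither (NT + Sham), to ask what the comorbidity left in the transcriptome of the frontal brain. It used 12 of the 24 libraries of the series, 6 per group, from 2 of the 4 groups. All mice were male C57BL/6J aged 3 to 5 months. Hypertension was induced by 28 days of angiotensin II (0.28 mg/kg/day), the peptide that constricts vessels and raises blood pressure, and saline was the vehicle of the NT groups. On day 7, stroke mice underwent photothrombosis over the prefrontal cortex, in which light closes cortical vessels through the photosensitive dye Rose Bengal, and sham mice underwent the surgery without a clot. Brains were collected on day 28 and poly(A) RNA from a coronal section that included the prefrontal cortex was sequenced, so that uninjured tissue was sampled together with the lesion. Each numbered library was treated as 1 mouse, although the labels do not say that the numbered libraries are separate mice, and *P* values measure the spread between libraries. The groups differed in both blood pressure treatment and stroke, and the contrast therefore cannot tell the effect of hypertension from that of stroke. For this, values of NT + Stroke (6 libraries) and HT + Sham (6 libraries) are given beside the results.

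Weeks after a cortical infarct, dead tissue is cleared by microglia, the resident phagocytes of the brain, and by macrophages that enter from blood and meninges. Phagocytes that take up myelin and lipid switch on a program that depends on the receptor TREM2 and its adaptor TYROBP. Astrocytes at the border of the lesion raise the filament proteins GFAP and vimentin and form a glial scar, and fibroblasts lay down collagen in its core.

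The total count per library was 15922855 to 20621370 in HT + Stroke and 18106566 to 21377869 in NT + Sham. Expression is given as CPM, the count scaled to the TMM-adjusted library size, and changes as the log2 fold change (log2FC) of HT + Stroke over NT + Sham with its standard error (SE). Adjusted *P* comes from edgeR's quasi-likelihood test, corrected across the whole table by the Benjamini-Hochberg procedure. The HT + Stroke libraries differed widely among themselves. On the first principal component of log2 CPM (39.2% of the variance), libraries 2, 3, 4 and 5 of HT + Stroke lay at 18.5 to 53.7, libraries 1 and 6 at −12 and −2.1, and the NT + Sham libraries at −30.5 to −17.5. Genes typical of regions next to the prefrontal cortex also varied between libraries, and how much of each region a section held was not measured. The score of a gene list in a library, the mean log2 CPM of its tested members less the NT + Sham mean, ranged from 0.07 to 1.71 in HT + Stroke and from −1.29 to 0.88 in NT + Sham for striatal projection neurons. For olfactory bulb neurons it ranged from −1.60 to 1.51 in HT + Stroke and from −0.71 to 0.57 in NT + Sham. HT + Stroke library 3 had 162 CPM of *Omp*, a marker of olfactory sensory neurons, against 1.02 to 52.9 CPM in the other HT + Stroke libraries and 3.79 to 17.2 CPM in NT + Sham. The Y-linked genes *Ddx3y*, *Uty*, *Kdm5d* and *Eif2s3y* were present in all 12 libraries, as the labelled sex requires.

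Of 16749 genes tested, 2470 differed between HT + Stroke and NT + Sham with an adjusted *P* under 0.05. The 1403 that were higher were 8.38% of the genes tested, and the 1067 that were lower were 6.37%. Higher genes changed by more, with a median log2FC of 0.71 against −0.30 in the lower genes. A log2 fold change above 1 was reached by 458 of the higher genes, and 7 of the lower genes fell below −1. The median of all genes tested was 0.00796. The values of the 6 and 6 libraries did not overlap for 964 genes (5.76% of those tested), of which 405 were called higher and 500 lower. With log2(FPKM + 1) and limma, 1178 genes were higher and 484 lower.

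The 2470 genes were not evenly shared by the HT + Stroke libraries. Of the 1403 higher genes, library 1 lay within the NT + Sham range for 648 (46.2%) and library 6 for 495 (35.3%), against 2.21% to 11.1% in the other 4. Of the 1067 lower genes, they lay within it for 289 (27.1%) and 226 (21.2%), against 1.03% to 9.75%. These genes were chosen with these same libraries, and the shares are descriptive. The number of DEGs was 2969 without HT + Stroke library 1 and 2768 without library 6. It was 1362 without HT + Stroke library 2, 1395 without library 4, and 1496, 1458 and 1533 without NT + Sham libraries 1, 4 and 5. Without HT + Stroke library 3 it was 2265. With the olfactory bulb and striatal scores as covariates, 0 genes passed in edgeR and 1745 had an unadjusted *P* under 0.05, against 4953 without them, so that every call below is lost in that fit. In that fit the median log2FC of disease-associated microglia genes was 1.19, of complement 1.06, of interferon response genes 0.48, of A1 astrocyte genes 0.59, of chemokines 1.13 and of metalloproteinases 0.82. It was 0.11 for oligodendrocyte precursors, 0.12 for pericytes, 0.33 for iron and heme genes and −0.03 for nasal genes. Striatal genes themselves form a covariate of that fit, so their median of 0 follows from the fit and is no result. For neuronal lists the median was −0.06 for glutamate and GABA receptors, −0.07 for potassium channels, −0.05 for calcium and sodium channels, −0.12 for neuropeptides and −0.67 for immediate early genes.

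The 10 genes with the largest rise, among those above an average log2 CPM of 1 and without overlap between groups, were *C3*, *Lcn2*, *Lgals3*, *Clec7a*, *Cst7*, *Gpnmb*, *Cpz*, *Lyz2*, *Col3a1* and *A2m*. *C3* (ENSMUSG00000024164, chromosome 17, 57203970 to 57228136), the central component of the complement cascade, was 2.88, 55.4, 124, 65.4, 29.9 and 3.42 CPM in HT + Stroke libraries 1 to 6 and 0.0498 to 0.402 CPM in NT + Sham (1 to 7 counts per library). All 6 HT + Stroke libraries were above every sham library, and libraries 1 and 6 were lowest (log2FC 7.79, SE 1.27, adjusted *P* = 0.00963). *C3* had under 10 counts in every sham library and so passed the filter on low counts only through HT + Stroke, and its *P* is given as a description. *Lcn2* (ENSMUSG00000026822, chromosome 2, 32384633 to 32388252), an iron-siderophore-binding protein secreted by reactive astrocytes and neutrophils, was 2.03, 93.1, 119, 78.2, 24 and 3.04 CPM in HT + Stroke against 0.229 to 1.45 CPM in sham mice (log2FC 6.41, SE 1.20, adjusted *P* = 0.0117). The same libraries were low. *Gpnmb*, a membrane glycoprotein of lipid-laden phagocytes, was 15.3, 240, 356, 339, 77.9 and 18.4 CPM in HT + Stroke against 5.00 to 7.20 CPM in sham mice (log2FC 4.8, SE 0.859, adjusted *P* = 0.0113). *Lyz2*, the lysozyme of myeloid cells, rose from 13.3 ± 1.73 (SD, n = 6) to 318 ± 295 CPM, and *A2m*, a broad protease inhibitor, from 1.64 ± 0.431 to 24.7 ± 18.8 CPM. *Cpz*, a carboxypeptidase bound to the extracellular matrix, was 0.570 to 11.7 CPM in HT + Stroke against 0.0529 to 0.498 CPM in sham mice. Scaled to depth, no sham library reached the 10 counts of the low-count filter, so *Cpz* passed it only through HT + Stroke. Its call was lost with limma on log2(FPKM + 1).

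**Figure D1:**
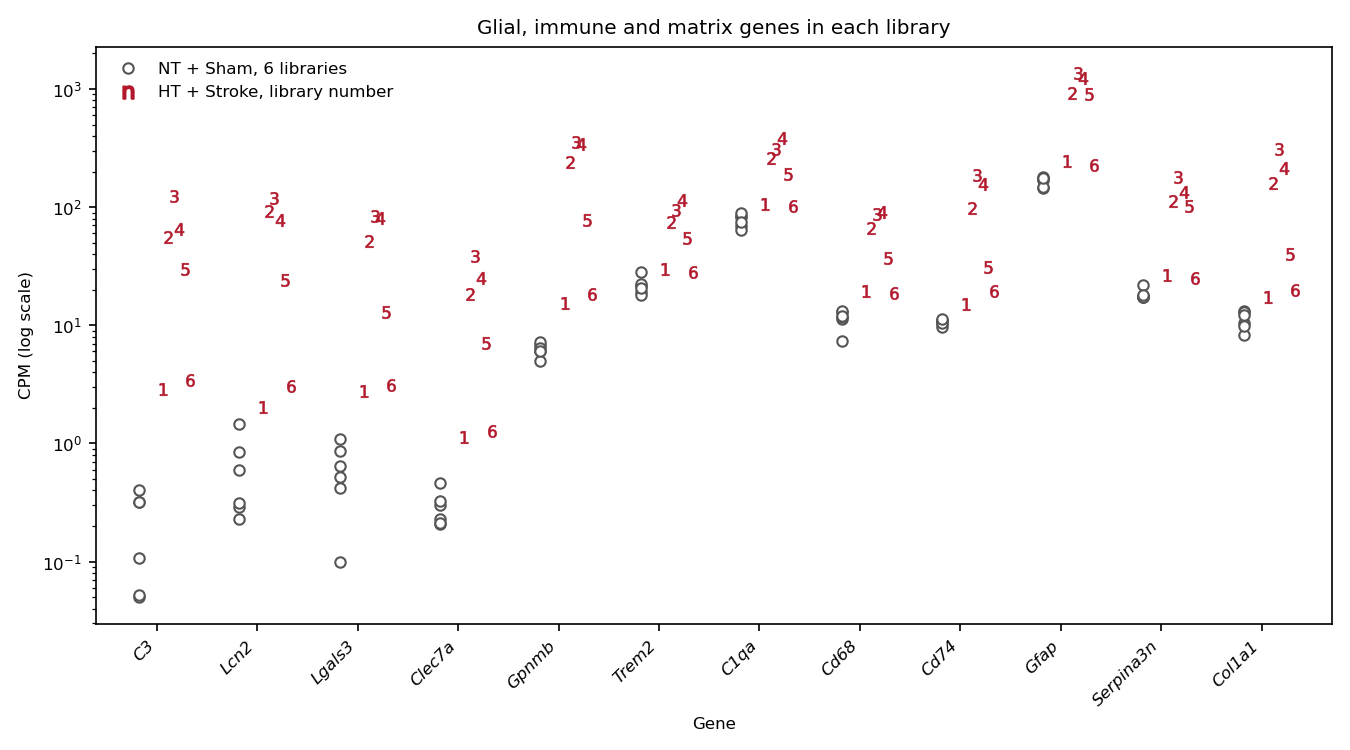
CPM on a log scale of 12 glial, immune and matrix genes, 1 column per gene, with the 6 NT + Sham libraries as open circles and the 6 HT + Stroke libraries as their numbers. Libraries 2, 3 and 4 are high throughout, library 5 is between, and libraries 1 and 6 are the lowest but above every sham library, for *C3* at 2.88 and 3.42 CPM against a sham maximum of 0.402 CPM.

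The 10 genes with the largest fall were *C1ql3*, *Glra3*, *C730002L08Rik*, *Npy5r*, *Gm15920*, *Spx*, *Adcyap1*, *Pter*, *Bhlhe22* and *AU022754*. Their log2 fold changes ran from −1.04 to −0.69, and all 6 HT + Stroke libraries lay below every sham library by construction. *Bhlhe22* (chromosome 3, 18054174 to 18057517), a transcription factor of cortical projection neurons, was 20.9, 17.8, 22, 19.7, 23 and 20.4 CPM in HT + Stroke against 28.8 to 42.9 CPM in sham mice (log2FC −0.70, SE 0.0967, adjusted *P* = 0.00602). Unlike the rising genes, it was as low in libraries 1 and 6 as in the others. *C1ql3*, a secreted synaptic organizer, was 4.31 to 11.3 CPM in HT + Stroke against 11.4 to 26.5 CPM in sham mice. *C1ql3* (chromosome 2, 13003457 to 13011806) begins 2 bases after *Pter* (12924041 to 13003455) ends, and whether reads were counted by strand is not given in the sources used here. *Glra3*, a glycine receptor subunit, *Npy5r*, a receptor of neuropeptide Y, and *Adcyap1*, the neuropeptide PACAP, had log2FC of −0.96 (SE 0.151), −0.77 (SE 0.157) and −0.74 (SE 0.131). *Spx*, the neuropeptide spexin, fell by 0.75 on the log2 scale, and its call was lost without NT + Sham library 2 or 4, as was that of *AU022754* without NT + Sham library 1, 2, 4 or 5.

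To describe the change by cell type and pathway, 60 lists with 740 different genes were counted. Of these genes 658 passed the filter on low counts, 201 were higher and 53 lower. Over all genes tested, 8.38% were higher and 6.37% lower, and the lower count was near that share. The 82 that were not tested had too few counts for the filter, and those that bear on a list are given by their counts. In bulk RNA, more cells of a type and more RNA per cell cannot be told apart.

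**Figure D2:**
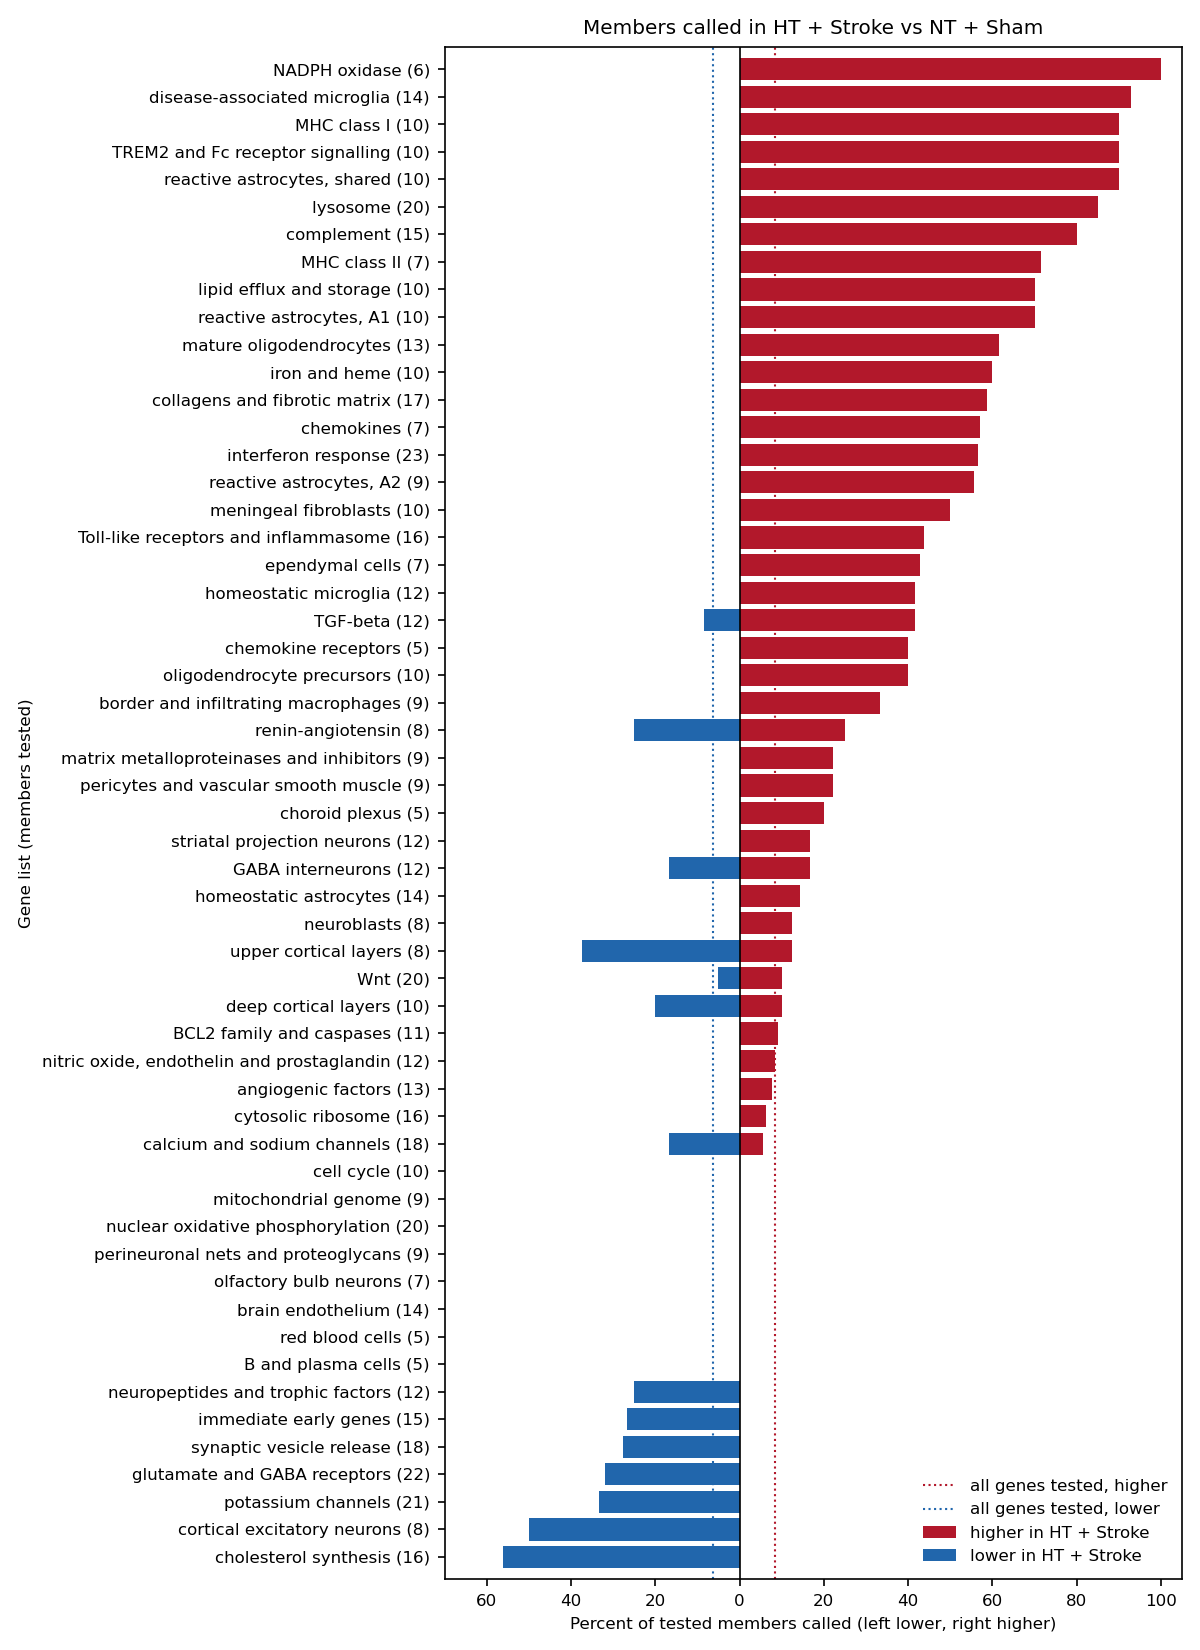
Percent of the tested members of each list (number tested in brackets, lists with at least 5) that were higher (red, right) or lower (blue, left) in HT + Stroke, with dotted lines at 8.38% and 6.37%, the shares of all genes tested. Phagocyte, antigen presentation and reactive astrocyte lists stand at the top, and cholesterol synthesis and cortical neuron lists at the bottom.

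Markers of activated phagocytes rose by a larger median than those of resting microglia, without a test between the lists. Of 15 disease-associated microglia genes, 14 were tested and 13 rose, with a median log2FC of 1.70. *Trem2*, the lipid receptor of microglia, was 30.1, 75.2, 95.3, 115, 54.3 and 28.2 CPM in HT + Stroke against 18.1 to 28.1 CPM in sham mice (log2FC 1.62, SE 0.341, adjusted *P* = 0.0142). Its adaptor *Tyrobp* rose from 17.7 ± 1.32 to 57.5 ± 30.4 CPM and *Apoe*, the lipid carrier of glia, from 2310 ± 326 to 5770 ± 2670 CPM. *Clec7a*, a receptor for fungal glucans, *Cst7*, an inhibitor of lysosomal cathepsins, and *Lgals3*, the galectin of phagocytes, had log2FC of 5.72 (SE 1.03), 5.67 (SE 0.866) and 6.03 (SE 1.11). *Clec7a* and *Cst7*, counted among the 13, had under 10 counts in every sham library and so passed the filter only through HT + Stroke. *Csf1*, a growth factor of microglia, was the tested member that did not pass (log2FC 0.60, adjusted *P* = 0.0769). *Itgax*, the member not tested, had 17, 197, 652, 377, 135 and 8 counts in HT + Stroke against 1 to 9 in sham mice.

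Of 12 homeostatic microglia genes, all were tested, 5 rose and none fell, with a median log2FC of 0.43. *P2ry12*, the purinergic receptor of resting microglia, was 20.4 to 27.7 CPM in HT + Stroke against 21.2 to 27.6 CPM in sham mice (log2FC 0.02, SE 0.0885, adjusted *P* = 0.914). *Olfml3* and *Selplg* rose in 6 of 6 libraries, by 0.87 (SE 0.174) and 0.46 (SE 0.102) on the log2 scale. *Tmem119* rose by 0.38 (SE 0.105, adjusted *P* = 0.0261), and this call was lost without HT + Stroke library 2 or 4 or NT + Sham library 1, 4, 5 or 6. The count of 5 was 3 without HT + Stroke library 4 or NT + Sham library 6. *Csf1r*, the receptor on which microglia depend, rose by 0.70 (SE 0.162).

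Of 12 genes of border and infiltrating macrophages, 9 were tested and 3 rose, which were *Ms4a7* (log2FC 3.75, SE 0.77), *Stab1* (1.04, SE 0.228) and *Ccr2* (1.53, SE 0.45). *Mrc1* and *Cd163*, scavenger receptors of border macrophages, had log2FC of 0.59 (adjusted *P* = 0.132) and −0.22 (adjusted *P* = 0.656). *Lyve1* was 0.425 ± 0.217 CPM in HT + Stroke against 0.907 ± 0.335 CPM in sham mice (log2FC −1.08, adjusted *P* = 0.0579). The count of 3 was 5 without HT + Stroke library 1.

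Transcripts of TREM2 and Fc receptor signalling genes were also higher, while signalling itself was not measured. Of 11 genes of TREM2 and Fc receptor signalling, 10 were tested and 9 rose, with a median log2FC of 1.33. *Fcer1g*, the shared Fc receptor chain, rose by 1.54 (SE 0.341), *Fcgr1*, the high-affinity IgG receptor, by 1.68 (SE 0.32) and *Spi1*, the transcription factor PU.1, by 1.17 (SE 0.284). *Vav1*, an exchange factor of myeloid signalling, rose by 1.34. *Inpp5d*, a phosphatase that dampens the pathway, had a log2FC of 0.45 (adjusted *P* = 0.0551). *Fcgr4* was not tested, with 8 to 104 counts in HT + Stroke against 1 to 4 in sham mice.

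Complement genes rose along the classical pathway and at the level of *C3* and its receptors. Of 16 genes, 15 were tested and 12 rose, with a median log2FC of 1.55, and *C3* is counted among them although it passed the filter only through HT + Stroke. *C1qa*, a chain of the C1q recognition molecule, was 107, 262, 309, 387, 192 and 103 CPM in HT + Stroke against 63.7 to 88.4 CPM in sham mice (log2FC 1.55, SE 0.312, adjusted *P* = 0.0126). *C4b* was 47.3, 169, 256, 213, 149 and 45.5 CPM in HT + Stroke against 18.1 to 25.9 CPM in sham mice (log2FC 2.70, SE 0.434, adjusted *P* = 0.0096). For both genes the groups did not overlap. *C3ar1*, the receptor of the C3a peptide, rose by 2.23 (SE 0.538), and *Itgam* and *Itgb2*, the chains of complement receptor 3, rose by 0.85 (SE 0.177) and 1.98 (SE 0.401). The regulators behaved less evenly. *Serping1*, the C1 inhibitor, rose from 9.15 ± 1.28 to 39.7 ± 26.2 CPM, and *Cd59a*, which blocks the membrane attack complex, had a log2FC of 0.05 (adjusted *P* = 0.842).

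Digestion of what phagocytes take up was the next group. Of 21 lysosome genes, 20 were tested and 17 rose, with a median log2FC of 0.75. *Cd68*, the lysosomal glycoprotein used as a phagocyte marker, was 19.5, 66, 87.2, 91.6, 37.2 and 18.6 CPM in HT + Stroke against 7.30 to 13.2 CPM in sham mice (log2FC 2.23, SE 0.429, adjusted *P* = 0.0118). *Ctsd*, the main aspartic protease of lysosomes, rose from 290 ± 25.2 to 654 ± 301 CPM and *Ctsb*, a cysteine protease, from 613 ± 19.2 to 899 ± 250 CPM, although the *Ctsb* call was lost without HT + Stroke library 2 or 4. *Gusb* and *Man2b1*, which cleave sugars, rose by 0.81 (SE 0.166) and 0.61 (SE 0.129). *Lamp2* and *Gla* did not pass (log2FC 0.33 and 0.00). *Atp6v0d2*, a subunit of the proton pump found in macrophages and osteoclasts, was not tested, with 5, 153, 443, 240, 35 and 7 counts in HT + Stroke and at most 2 in any sham library. Against 3 counts per library it was at least 46.9-fold higher.

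All 6 tested genes of the NADPH oxidase of phagocytes, which makes superoxide, rose, of 7 listed, with a median log2FC of 1.88. *Cybb*, its catalytic subunit, was 0.733, 7.21, 18, 10.6, 3.39 and 1.96 CPM in HT + Stroke against 0.317 to 1.35 CPM in sham mice (log2FC 3.48, SE 0.722, adjusted *P* = 0.0131). Library 1 of HT + Stroke lay within the sham range. *Ncf4* and *Rac2* rose in 6 of 6 libraries, by 2.31 (SE 0.434) and 1.73 (SE 0.328). *Nox4*, the form of vessels and kidney, was not tested, with 0 to 18 counts in HT + Stroke against 0 to 5 in sham mice.

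Of 12 genes of lipid efflux and storage, 10 were tested and 7 rose, with a median log2FC of 0.91. *Plin2*, the coat of lipid droplets, rose by 1.72 (SE 0.441), *Abca1*, the cholesterol exporter, by 1.36 (SE 0.354) and *Apoc1* by 3.09 (SE 0.747). This list was among the least stable, since 1 to 3 members passed without HT + Stroke library 2 or 4 or NT + Sham library 1, 3, 4 or 5.

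Antigen presentation genes rose on both arms. Of 10 MHC class I genes, all were tested and 9 rose, with a median log2FC of 1.29. *H2-K1*, a classical class I heavy chain, was 49.7, 121, 183, 180, 90.6 and 53.8 CPM in HT + Stroke against 37.2 to 44.3 CPM in sham mice (log2FC 1.49, SE 0.32, adjusted *P* = 0.0149). *Nlrc5*, the activator of class I genes, rose by 1.96 (SE 0.351), *Psmb9*, a subunit of the immunoproteasome, by 1.48 (SE 0.253) and *Tapbp*, which loads peptides, by 0.76 (SE 0.15). *H2-K1*, *H2-D1*, *H2-Q4* and *H2-Q7* are similar in sequence, and how reads shared among them were counted was not given. Of 7 class II genes, all were tested and 5 rose, with a median log2FC of 2.72. *Cd74*, the class II invariant chain, was 15, 99.2, 188, 157, 31.4 and 19.6 CPM in HT + Stroke against 9.68 to 11.2 CPM in sham mice (log2FC 3.01, SE 0.653, adjusted *P* = 0.0163). *H2-Aa* rose from 3.53 ± 0.572 to 34.8 ± 31.8 CPM. *H2-DMa* (log2FC 0.22, adjusted *P* = 0.172) and *Ciita*, the activator of class II genes (1.16, adjusted *P* = 0.0916), did not pass.

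Interferon response genes were raised in part. Of 24 genes, 23 were tested and 13 rose, with a median log2FC of 0.74. The count of 13 fell to 7 or 8 without HT + Stroke library 2 or 4 or NT + Sham library 1, 3 or 4. *Bst2*, which tethers enveloped viruses, was 9.42, 18, 21.5, 32, 12.4 and 9.56 CPM in HT + Stroke against 5.23 to 6.32 CPM in sham mice (log2FC 1.56, SE 0.271, adjusted *P* = 0.00917). *Ifitm3*, which blocks viral entry, rose by 1.34 (SE 0.257) and *Irf7*, a transcription factor of the response, by 1.21 (SE 0.267). *Stat2*, a signal carrier, had a log2FC of 0.02 (adjusted *P* = 0.937). *Ifit2* and *Rsad2* had −0.04 and 0.32, and neither passed. *Isg15* rose by 0.78 (SE 0.232), but its call was lost in 9 of the 12 fits that left out 1 library.

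Factors induced by interferon bind the interferon-stimulated response element, searched here as GAAANNGAAA on both strands in the 250 bases before the start of each gene (RefSeq, GRCm38.p6). Of the 24 interferon response genes, 16 had a promoter in the table used, and 8 of these (50%) held a match, against 476 of 17029 promoters (2.80%) of all genes of the comparison that had one. The 4 called genes with a match and the smallest *P* are shown from 5′ to 3′ with the matches in capitals, overlapping matches running together, because they show the letters that genes rising together shared before their start. They are *Bst2* at chr8:71537473-71537722 on the minus strand, *Oas1a*, an RNA-sensing synthetase, at chr5:120907526-120907775 on the minus strand, *Gbp3*, a guanylate-binding protein, at chr3:142559794-142560043 on the plus strand, and *Isg15*, a ubiquitin-like modifier, at chr4:156200819-156201068 on the minus strand.
Bst2: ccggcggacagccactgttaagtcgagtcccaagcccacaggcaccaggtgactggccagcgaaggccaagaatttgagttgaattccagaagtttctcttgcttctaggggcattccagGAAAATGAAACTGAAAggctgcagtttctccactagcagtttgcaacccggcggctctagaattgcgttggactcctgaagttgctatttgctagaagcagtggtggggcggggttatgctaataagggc
Oas1a: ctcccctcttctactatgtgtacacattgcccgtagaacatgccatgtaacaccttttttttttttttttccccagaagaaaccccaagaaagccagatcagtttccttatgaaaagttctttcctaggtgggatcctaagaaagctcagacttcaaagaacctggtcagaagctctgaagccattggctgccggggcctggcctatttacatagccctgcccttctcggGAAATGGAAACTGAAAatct
Gbp3: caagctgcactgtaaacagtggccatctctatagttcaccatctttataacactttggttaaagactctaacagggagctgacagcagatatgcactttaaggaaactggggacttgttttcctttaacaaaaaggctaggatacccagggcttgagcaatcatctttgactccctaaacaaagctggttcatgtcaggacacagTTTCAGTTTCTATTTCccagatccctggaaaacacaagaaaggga
Isg15: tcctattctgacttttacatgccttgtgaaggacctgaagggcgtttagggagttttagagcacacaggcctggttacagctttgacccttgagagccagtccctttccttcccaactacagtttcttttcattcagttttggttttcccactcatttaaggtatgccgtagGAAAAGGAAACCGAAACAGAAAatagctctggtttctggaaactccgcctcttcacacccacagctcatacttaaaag
The matches lay within 130 bases of the start in all 4, and *Bst2*, *Oas1a* and *Gbp3* each held 2 overlapping matches and *Isg15* 3. A match is a description of these letters and not of a bound site. *Rsad2* and *Stat2*, which did not pass, also held a match. The same count gave 1 of 13 promoters of disease-associated microglia genes (7.69%) and 0 of 7 of homeostatic microglia genes for the PU.1 motif GAGGAAGT, against 2.42% of all promoters, and 2 of 17 lysosome promoters (11.8%) for TCACGTGA, the core of the CLEAR element, against 1.09%.

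Chemokines and pattern recognition receptors followed the phagocyte genes. Of 14 chemokines, 7 were tested and 4 rose. *Ccl3* and *Cxcl16*, which attract leukocytes, rose by 3.25 (SE 0.689) and 2.33 (SE 0.495), and *Ccl9* and *Ccl12* by 1.73 (SE 0.346) and 1.80 (SE 0.339). *Cx3cl1*, the neuronal chemokine that restrains microglia, was 1010 ± 133 CPM in HT + Stroke against 1040 ± 93.8 CPM in sham mice (adjusted *P* = 0.810). *Ccl2*, *Ccl4*, *Ccl5* and the other 4 untested chemokines had at most 108 counts in any HT + Stroke library and at most 10 in any sham library. Of 9 chemokine receptors, 5 were tested and *Cxcr4* and *Ccrl2* rose, by 1.71 and 1.24, but 0 passed without HT + Stroke library 4 or NT + Sham library 1 or 4, and 1 passed without HT + Stroke library 2 or 3 or NT + Sham library 3 or 6. Of 17 genes of Toll-like receptors and the inflammasome, 16 were tested and 7 rose, with a median log2FC of 0.71, and 12 rose without HT + Stroke library 1. *Tlr2*, a receptor of bacterial lipoproteins, rose by 2.41 (SE 0.473) and *Casp4*, an inflammatory caspase, by 1.44 (SE 0.279). *Nlrp3*, *Pycard* and *Casp1*, the sensor, adaptor and protease of the inflammasome, had log2FC of 0.93, 0.75 and 0.62 and did not pass. *Il1b* was not tested, with 4 to 64 counts in HT + Stroke against 2 to 9 in sham mice.

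Lymphocytes, neutrophils and mast cells left few counts. Of 13 T and cytotoxic lymphocyte genes, 1 was tested, *Cd4*, which was 21.6, 30.4, 22.1, 19.2, 9.27 and 23.9 CPM in HT + Stroke against 1.97 to 10.5 CPM in sham mice (log2FC 1.64, SE 0.384, adjusted *P* = 0.0184). *Cd3e*, *Cd3d*, *Cd3g* and *Cd8a*, the defining T cell genes, had at most 24 counts in any HT + Stroke library and at most 10 in any sham library. *Cd4* was lowest in the libraries in which the striatal score was lowest, library 5 of HT + Stroke (9.27 CPM, score 0.07) and library 4 of NT + Sham (1.97 CPM, score −1.29), and its log2FC was 0.42 in the fit with striatal and olfactory bulb scores. Of 11 B and plasma cell genes, 5 were tested and 0 passed in edgeR, with *Igkc*, the kappa light chain, at 15.2 ± 22 CPM in HT + Stroke against 0.848 ± 0.968 CPM in sham mice (adjusted *P* = 0.0558). The neutrophil genes *S100a8* and *S100a9* rose by 2.49 (SE 0.658) and 2.24 (SE 0.69) and were the 2 tested of 8. At least 1 of these 2 calls was lost in 9 of the 12 fits that left out 1 library. With limma on log2(FPKM + 1) or a block on the library number, 0 of the 2 passed. The neutrophil score was above every sham library in 5 HT + Stroke libraries. In HT + Stroke library 1 it was −2.15, below the sham range of −0.78 to 0.46. *Ly6g*, the neutrophil surface marker, had at most 2 counts in any library. None of 5 mast cell genes was tested, and *Cma1* had 2 to 25 counts in HT + Stroke against 0 or 1 in sham mice. Of 6 red blood cell genes, 5 were tested and 0 passed.

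Most reactive astrocyte genes rose, whereas 2 of 14 homeostatic astrocyte genes passed. Of 12 genes shared by the reactive states, 10 were tested and 9 rose, with a median log2FC of 1.96. *Gfap*, the intermediate filament of astrocytes, was 247, 929, 1360, 1250, 911 and 229 CPM in HT + Stroke against 145 to 181 CPM in sham mice (log2FC 2.31, SE 0.437, adjusted *P* = 0.0117). *Vim*, vimentin, rose from 43.6 ± 1.83 to 138 ± 73.1 CPM and *Serpina3n*, a secreted protease inhibitor, from 18.3 ± 1.78 to 97.0 ± 61.1 CPM. All 6 HT + Stroke libraries were above sham for these 3 genes, with libraries 1 and 6 nearest to it. *Timp1* and *Cd44* rose by 3.50 (SE 0.663) and 2.25 (SE 0.499), and *Hspb1*, a small heat shock protein, did not pass (0.46, adjusted *P* = 0.051). *Steap4* and *Cxcl10* were not tested.

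Of the genes once assigned to an inflammatory state (A1), 10 of 10 were tested and 7 rose, with a median of 0.97, and of those assigned to an ischemic state (A2), 9 of 12 were tested and 5 rose, with a median of 0.68. *Gbp2*, *Psmb8* and *H2-D1* among the A1 genes rose by 1.28, 1.48 and 1.50, and these are also interferon or antigen presentation genes. *Cd109*, an A2 gene that binds TGF-beta, was 1.41, 2.82, 3.73, 3.21, 2.64 and 1.46 CPM in HT + Stroke against 0.311 to 0.733 CPM in sham mice (log2FC 2.33, SE 0.297, adjusted *P* = 0.00602). *S100a10*, often used to mark the A2 state, had a log2FC of 0.01 (adjusted *P* = 0.959). The A2 count was 3 without HT + Stroke library 4 or NT + Sham library 1 or 4. The score of the homeostatic astrocyte list was −0.03 to 0.39 in HT + Stroke and −0.09 to 0.07 in sham mice, with 4 of 6 HT + Stroke libraries above the sham range. Of its 14 genes, all were tested and *Mlc1* (log2FC 0.50, SE 0.098) and *Aldh1l1* (0.27, SE 0.0848) rose, the second losing its call in 9 of 12 fits that left out 1 library. *Slc1a2*, the main glutamate transporter, was 1350 ± 126 CPM in HT + Stroke against 1340 ± 61.0 CPM in sham mice. *Aqp4*, the water channel, had a log2FC of 0.42 (adjusted *P* = 0.189).

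**Figure D3:**
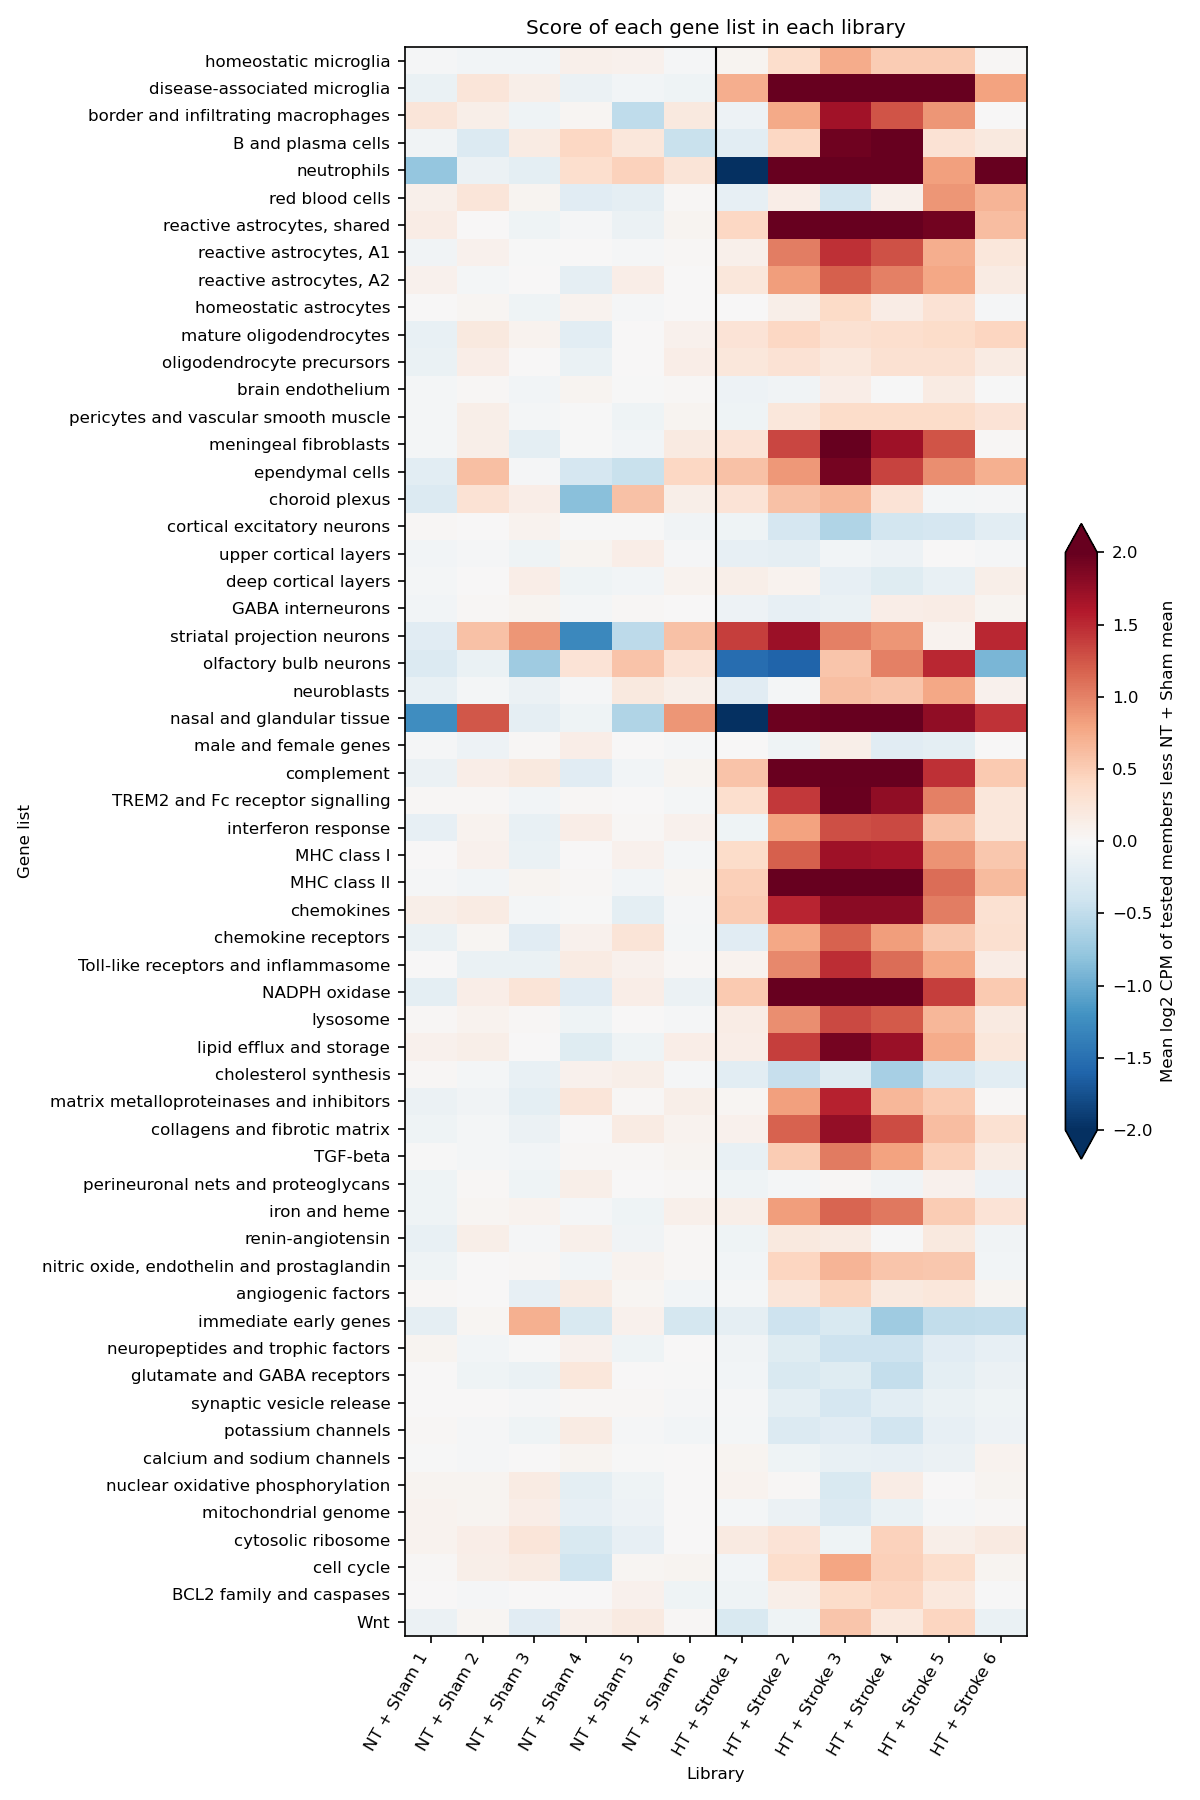
Score of each list (rows, lists with at least 2 tested members) in each of the 12 libraries (columns, NT + Sham left, HT + Stroke right), as the mean log2 CPM of tested members less the NT + Sham mean, with the colour scale ending at −2 and 2. Phagocyte and reactive astrocyte lists are dark in HT + Stroke libraries 2 to 5 and pale in 1 and 6, the mature oligodendrocyte list is even across the 6 at 0.28 to 0.43, and striatal, olfactory bulb and nasal lists vary within both groups.

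Matrix genes of fibroblasts rose, and endothelial genes did not. Of 10 meningeal fibroblast genes, all were tested and 5 rose, with a median log2FC of 0.89 (3 without HT + Stroke library 4 or NT + Sham library 4). *Col1a1*, fibrillar collagen I, was 17.3, 159, 309, 215, 40.1 and 19.7 CPM in HT + Stroke against 8.27 to 13.2 CPM in sham mice (log2FC 3.51, SE 0.758, adjusted *P* = 0.0162). *Dcn* and *Lum*, proteoglycans that space collagen fibrils, rose by 1.99 (SE 0.395) and 2.49 (SE 0.526). Of 18 collagens and genes of fibrotic matrix, 17 were tested and 10 rose, with a median of 0.89, and 5 or 6 passed without HT + Stroke library 2 or 4 or NT + Sham library 1, 3 or 4. *Col3a1* rose from 2.29 ± 0.351 to 42.1 ± 42.5 CPM and *Serpinh1*, the collagen chaperone, from 20.7 ± 2.32 to 47.5 ± 18.8 CPM. The basement membrane collagens *Col4a1* and *Col4a2* had log2FC of 0.52 (adjusted *P* = 0.075) and 0.31 (adjusted *P* = 0.0254).

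Of 12 TGF-beta genes, all were tested, 5 rose and 1 fell. *Tgfb1*, the ligand that drives scarring, rose by 1.16 (SE 0.242), *Tgfbr2* by 0.85 (SE 0.211) and *Tgfbi* by 1.53 (SE 0.394), while *Smad2*, a signal carrier, fell by 0.21 on the log2 scale (SE 0.0664, adjusted *P* = 0.0464). Without HT + Stroke library 4 the count of 5 was 1, and it was 2 or 3 without NT + Sham library 1, 3, 4 or 5, while the *Smad2* call was lost in 9 of the 12 such fits. Of 12 metalloproteinases and inhibitors, 9 were tested and *Mmp2* (1.86, SE 0.491) and *Mmp14* (1.47, SE 0.375) rose, 0 passed without HT + Stroke library 2 or 4 or NT + Sham library 1, 4 or 5, 1 without NT + Sham library 3 or 6, and 5 and 4 passed without HT + Stroke libraries 1 and 6. *Mmp12*, the elastase of macrophages, was not tested, with 3, 130, 478, 239, 15 and 4 counts in HT + Stroke and at most 2 in any sham library. Its HT + Stroke mean was at least 45.8-fold higher against 3 counts per library. That mean was carried by libraries 2, 3 and 4, and libraries 1 and 6 were at or near this floor.

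Of 14 brain endothelial genes, all were tested and 0 passed in edgeR, with a median log2FC of −0.01. *Cldn5*, the main tight junction protein, was 47.8 to 78.7 CPM in HT + Stroke against 50 to 68.6 CPM in sham mice (log2FC 0.23, SE 0.115, adjusted *P* = 0.193). *Slc2a1* and *Mfsd2a*, transporters of glucose and of lipids at the blood-brain barrier, had −0.06 (SE 0.0943) and −0.33 (SE 0.16). Of 10 pericyte and smooth muscle genes, 9 were tested and 2 rose, *Pdgfrb*, the receptor of pericytes and fibroblasts (0.46, SE 0.127), and *Vtn*, vitronectin (0.45, SE 0.105). The *Pdgfrb* call was lost without HT + Stroke library 4 or NT + Sham library 1. *Rgs5*, a pericyte marker, was 81.0 ± 4.67 CPM in HT + Stroke against 82.2 ± 4.77 CPM in sham mice. Of 14 angiogenic factors, 13 were tested and 1, *Angpt1*, passed (0.51, SE 0.156), a call lost in 9 of the 12 fits that left out 1 library, while 3 and 2 passed without HT + Stroke libraries 1 and 6, and *Vegfa* had −0.05 (SE 0.16). The angiogenic count was near the 8.38% of all genes tested that were higher.

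Genes of the renin-angiotensin system, the system that the infusion acts on, moved in both directions. Of 11 genes, 8 were tested, 2 rose and 2 fell, and over all genes tested 8.38% were higher and 6.37% lower. The list median against NT + Sham was 0.07 in HT + Stroke, 0.19 in NT + Stroke and −0.07 in HT + Sham. Whether the infusion or the stroke moved single members was not tested. *Ace*, which makes angiotensin II, was 18.4, 20.7, 21.4, 25.4, 18.5 and 18.2 CPM in HT + Stroke against 11.6 to 15.8 CPM in sham mice (log2FC 0.53, SE 0.0994, adjusted *P* = 0.0096). *Agt*, the precursor made by astrocytes, was 7.41 to 16.4 CPM in HT + Stroke against 5.83 to 9.36 CPM in sham mice (0.61, SE 0.189, adjusted *P* = 0.041), a call lost in 9 of the 12 fits that left out 1 library. *Atp6ap2*, the prorenin receptor, fell from 251 ± 7.24 to 207 ± 19.5 CPM and *Mas1*, a receptor linked to angiotensin (1-7), from 22.4 ± 3.07 to 16.8 ± 2.23 CPM, and 1 of these 2 calls was lost without NT + Sham library 1. *Agtr1a*, the main angiotensin II receptor, was 0.496 ± 0.160 CPM in HT + Stroke against 0.641 ± 0.267 CPM in sham mice (adjusted *P* = 0.52), and *Ren1*, *Agtr1b* and *Agtr2* had at most 14 counts in any library. Of 13 genes of nitric oxide, endothelin and prostaglandin, 12 were tested and 1 rose, *Tbxas1*, the thromboxane synthase of platelets and macrophages (1.61, SE 0.296), with 2 calls without HT + Stroke library 1 or 6, and *Nos3* and *Edn1* had 0.13 (SE 0.106) and 0.39 (SE 0.20). This count of 1 of 12 was near the 8.38% of all genes tested that were higher.

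Of 10 iron and heme genes, all were tested and 6 rose. *Hmox1*, which degrades heme, was 7.90, 18.4, 26.8, 20.4, 13.2 and 7.60 CPM in HT + Stroke against 4.85 to 6.15 CPM in sham mice (log2FC 1.49, SE 0.276, adjusted *P* = 0.00988). *Slc11a1*, an iron exporter of phagosomes, rose by 2.41 (SE 0.477), *Ftl1*, ferritin light chain, by 0.87 (SE 0.213) and *Trf*, transferrin, which in brain is made largely by oligodendrocytes, by 0.78 (SE 0.14).

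Myelin genes rose modestly and evenly. Of 13 mature oligodendrocyte genes, all were tested and 8 rose, with a median log2FC of 0.37, and 8 or 9 rose whichever library was left out. *Cnp*, an enzyme of the myelin sheath, was 412, 489, 425, 522, 464 and 471 CPM in HT + Stroke against 260 to 351 CPM in sham mice (log2FC 0.57, SE 0.0803, adjusted *P* = 0.00602). The groups did not overlap, and libraries 1 and 6 of HT + Stroke stood with the others. *Mbp*, myelin basic protein, rose from 2200 ± 335 to 3020 ± 208 CPM and *Opalin* from 21.9 ± 3.38 to 33.5 ± 6.86 CPM. The striatal score was 0.07 to 1.71 in HT + Stroke and −1.29 to 0.88 in sham mice, and with striatal and olfactory bulb scores as covariates the median of the myelin list was 0.16. The part of striatal tissue in these values was not tested. Of 10 precursor genes, all were tested and *Bcas1*, *Enpp6*, *Sox10* and *Olig2* rose (2 without HT + Stroke library 2 or 4 or NT + Sham library 1 or 4), the first 2 of which mark newly forming oligodendrocytes, by 0.44 (SE 0.0832) and 0.65 (SE 0.165). *Pdgfra*, which marks the precursors themselves, was 23.4 ± 2.87 CPM in HT + Stroke against 23.5 ± 2.53 CPM in sham mice.

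Genes typical of neighbouring regions passed the test unevenly, beside 8.38% of all genes tested that were higher. All 12 striatal projection neuron genes were tested and all had a positive log2 fold change (median 0.96), although 2 passed, *Rxrg* and *Pde1b*, and 0 to 4 passed when 1 library was left out (0 without HT + Stroke library 2 or 4 or NT + Sham library 1 or 5, 1 without HT + Stroke library 1, 3 or 6 or NT + Sham library 4, and 4 without HT + Stroke library 5). With a block on the library number 7 striatal genes were higher, and with DESeq2 4 were. *Drd2*, the dopamine receptor of the indirect pathway, was 84.6, 109, 62.8, 62.7, 28.8 and 89.1 CPM in HT + Stroke against 3.16 to 49.8 CPM in sham mice (log2FC 1.43, SE 0.549, adjusted *P* = 0.109). Of 8 ependymal genes, 7 were tested and 3 rose, led by *Ccdc153* (2.20, SE 0.458) and *Foxj1*, the factor of motile cilia (1.31, SE 0.225), for which the groups did not overlap. The ependymal median was 0.92, and 0.34 in the fit with striatal and olfactory bulb scores. Of 8 olfactory bulb genes, 7 were tested and 0 passed in edgeR. Of 8 neuroblast genes, all were tested and *Dlx5* rose (0.54, SE 0.134), with 4 without HT + Stroke library 1 and 2 without library 6. Of 7 choroid plexus genes 5 were tested and *Clic6* rose (1.52, SE 0.45), a call lost in 7 of 12 fits that left out 1 library, and *Ttr*, the defining gene, was 0.526 ± 0.177 CPM in HT + Stroke against 1.99 ± 3.27 CPM in sham mice (adjusted *P* = 0.152). Of 8 genes of nasal and glandular tissue, 3 were tested and *Bpifa1* passed, with 54.1 CPM in HT + Stroke library 3 and 0.0564 to 11.6 CPM in the other 5, a call lost without HT + Stroke library 2, 3 or 4 or NT + Sham library 1, 3, 4, 5 or 6, with 2 calls without HT + Stroke library 1.

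Genes of cortical excitatory neurons were lower. Of 8 genes, all were tested and 4 fell, with a median log2FC of −0.28, and the same number passed whichever library was left out. *Neurod2*, a transcription factor of glutamatergic neurons, was 100, 97.6, 90.8, 96.8, 101 and 103 CPM in HT + Stroke against 115 to 127 CPM in sham mice (log2FC −0.30, SE 0.0524, adjusted *P* = 0.00836). *Tbr1*, a factor that specifies deep-layer neurons, fell from 138 ± 5.69 to 101 ± 14.3 CPM. The groups did not overlap for *Neurod2* and *Tbr1*, while *Neurod6* fell by 0.62 on the log2 scale with 5 of 6 libraries below sham. *Slc17a7*, the vesicular glutamate transporter of cortex, was 2220 ± 361 CPM in HT + Stroke against 2670 ± 245 CPM in sham mice (adjusted *P* = 0.106). With striatal and olfactory bulb scores as covariates the median was −0.27.

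Within the cortex, *Fezf2*, a factor of subcerebral projection neurons (log2FC −0.62, SE 0.138), *Etv1* (−0.30, SE 0.0722), *Rasgrf2* (−0.35, SE 0.0776), *Calb1* (−0.30, SE 0.0725) and *Lhx2* (−0.20, SE 0.0569) fell, and *Syt6* and *Cux1* rose (0.30, SE 0.0908, and 0.18, SE 0.0565), the last 2 calls being lost in 9 and 11 of the 12 fits that left out 1 library. These were 3 lower and 1 higher of 8 upper-layer genes and 2 lower and 1 higher of 10 deep-layer genes, all tested. Over all genes tested, 6.37% were lower and 8.38% higher. Of 12 interneuron genes, all were tested, *Gad2* (0.33, SE 0.0814) and *Slc32a1*, the GABA transporter of vesicles (0.45, SE 0.0986), rose, and *Vip* (−0.40, SE 0.0765) and *Kcnc2* (−0.38, SE 0.0879) fell. Striatal neurons are also GABAergic. *Pvalb* and *Sst*, which mark the main cortical interneurons, had log2FC of 0.12 (SE 0.18) and −0.11 (SE 0.177).

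Synaptic genes fell in part and by small amounts. Of 18 genes of vesicle release, all were tested and 5 fell, with a median log2FC of −0.13. *Snap25*, of the fusion complex, was 2060, 1760, 1870, 1700, 1980 and 2180 CPM in HT + Stroke against 2330 to 2620 CPM in sham mice (log2FC −0.37, SE 0.0714, adjusted *P* = 0.00963). *Sv2b*, a vesicle protein of excitatory terminals, fell from 368 ± 36.2 to 259 ± 40.9 CPM and *Syn2* from 444 ± 22.4 to 346 ± 33.3 CPM. Of 22 glutamate and GABA receptor genes, all were tested and 7 fell, with a median of −0.23. *Gria3*, an AMPA receptor subunit, was 119 to 153 CPM in HT + Stroke against 168 to 236 CPM in sham mice (log2FC −0.48, SE 0.0884, adjusted *P* = 0.00945), and *Grin2a*, an NMDA receptor subunit, fell by 0.39 (SE 0.0739) on the log2 scale. *Grin1* and *Gabbr1* had 0.02 and −0.09 and did not pass.

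Of 21 potassium channel genes, all were tested and 7 fell, among them *Kcnv1* (−0.48, SE 0.111) and *Kcnj3* (−0.35, SE 0.0757), and 4 passed without HT + Stroke library 2 or 4 or NT + Sham library 4 or 5. Of 18 calcium and sodium channel genes, all were tested, *Cacna2d1*, *Scn2a* and *Scn8a* fell and *Scn4b*, a subunit abundant in striatum, rose (1.02, SE 0.215), and 1 of the 3 falls passed without HT + Stroke library 2, 3, 4 or 5 or NT + Sham library 1, 4 or 5, with 2 rather than 1 higher without HT + Stroke library 3.

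Of 12 neuropeptides and trophic factors, all were tested and 3 fell. *Bdnf*, the neurotrophin of cortical neurons, was 18.4, 11.1, 13.8, 9.62, 11.9 and 16.6 CPM in HT + Stroke against 16.8 to 25.6 CPM in sham mice (log2FC −0.60, SE 0.15, adjusted *P* = 0.0182). Library 1 of HT + Stroke lay within the sham range. *Adcyap1* and *Nptx1*, a pentraxin that gathers AMPA receptors, were the others. Of 15 immediate early genes, all were tested and *Nr4a1*, *Nr4a3*, *Dusp1* and *Fos* fell (log2FC −0.86, −0.74, −0.59 and −1). *Fos* was 7.00, 5.01, 10.3, 4.57, 8.47 and 6.90 CPM in HT + Stroke against 11.1, 12.7, 29.1, 10.2, 14.2 and 7.45 CPM in sham mice, so that 1 sham library was far above the rest and the groups overlapped. The *Fos* call (adjusted *P* = 0.0465) was lost in 9 of the 12 fits that left out 1 library. The count of 4 was 2 without HT + Stroke library 2, 4, 5 or 6 or NT + Sham library 1, 2 or 5, and 7 without HT + Stroke library 1. *Arc* and *Egr1* had −1.07 (adjusted *P* = 0.0979) and −0.60 (adjusted *P* = 0.0669). The cAMP response element TGACGTCA, through which activity induces such genes, was found in 2 of the 11 promoters available (*Btg2* and *Dusp1*), against 2.14% of all promoters.

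Cholesterol synthesis genes were lower by small amounts that varied between libraries. The list score was −0.66 to −0.21 in HT + Stroke and −0.15 to 0.11 in NT + Sham. Of 16 genes, all were tested and 9 fell, with a median log2FC of −0.36, and 7 to 9 fell when 1 library was left out. *Sqle*, which makes the first oxygenated sterol precursor, was 43.7, 38.4, 39.9, 34.9, 43.4 and 42.2 CPM in HT + Stroke against 50.8 to 62.7 CPM in sham mice (log2FC −0.47, SE 0.0696, adjusted *P* = 0.00602). *Hmgcs1* fell from 200 ± 8.83 to 144 ± 15.4 CPM and *Cyp51* from 53.2 ± 3.98 to 39.7 ± 3.46 CPM. The groups did not overlap for 6 of the 16 genes. Over all genes tested, the groups did not overlap for 5.76%, and 6.37% were lower. *Dhcr7* and *Mvd* had a log2FC of 0.06 and −0.12 and did not pass. With striatal and olfactory bulb scores as covariates the median was −0.27.

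**Figure D4:**
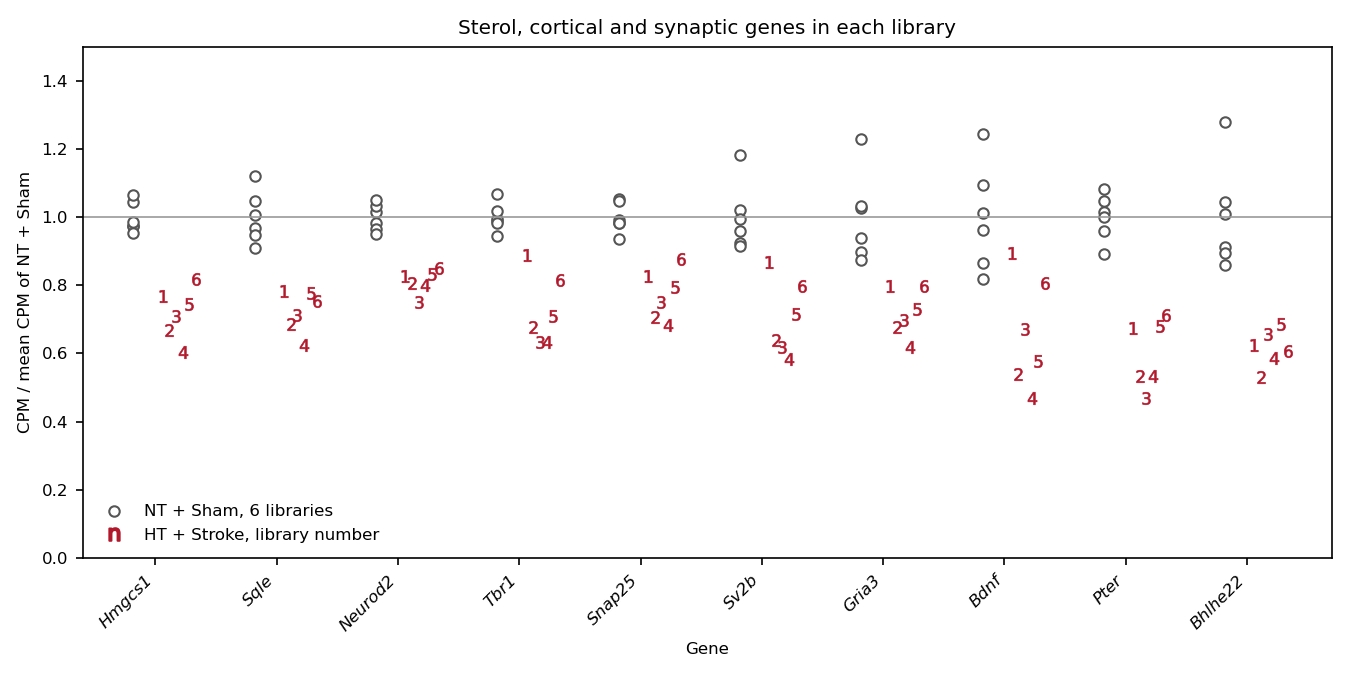
CPM divided by the mean of NT + Sham for 10 genes, with NT + Sham libraries as open circles and HT + Stroke libraries as their numbers, on a linear axis from 0. *Pter* and *Bhlhe22* come from the 10 largest falls without overlap, so their separation is by construction. The others are genes of sterol synthesis, cortical neurons, synapses and trophic factors. HT + Stroke libraries lie below every sham library for each gene shown except *Bdnf*, and library 4 is the lowest for most of them.

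Energy and housekeeping lists showed little. Of 20 nuclear oxidative phosphorylation genes and 9 genes of the mitochondrial genome, all were tested and 0 passed in edgeR, with medians of 0.00 and −0.07. Of 16 ribosomal protein genes 1, *Rplp0*, passed (0.33, SE 0.0946), a call lost without HT + Stroke library 2 or 4 or NT + Sham library 4 or 5. Of 12 cell cycle genes 10 were tested and 0 passed, with *Mki67* at 1.82 ± 0.855 CPM in HT + Stroke against 1 ± 0.395 CPM in sham mice (adjusted *P* = 0.0826). All 9 genes of perineuronal nets were tested and 0 passed. Of 14 genes of the BCL2 family and caspases, 11 were tested and *Bak1*, which permeabilizes mitochondria, rose (0.40, SE 0.117), a call lost in 8 of the 12 fits that left out 1 library, with 3 calls without HT + Stroke library 1. Of 20 Wnt genes, all were tested, *Wnt7a*, a glial and neuronal ligand (0.48, SE 0.101), and *Sfrp5* (1, SE 0.286) rose and *Dkk3* fell (−0.48, SE 0.0837), and 1 rather than 2 rose without HT + Stroke library 2, 4 or 5 or NT + Sham library 1, 3 or 4, while 2 rather than 1 fell without HT + Stroke library 6 or NT + Sham library 6. The Wnt counts, and the ribosomal and BCL2 family counts of higher genes, were near the shares of all genes tested, 8.38% higher and 6.37% lower.

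To see what hypertension added to stroke, HT + Stroke was compared with NT + Stroke. Of 17008 genes tested, 0 passed (0%), the smallest adjusted *P* was 0.654 and 1230 genes had an unadjusted *P* under 0.05 in edgeR. DESeq2 called 0 and gave 1531 at the unadjusted threshold. The change against NT + Sham in each of these 2 groups rests on the same sham libraries, and the values are given side by side. *C3* had a log2FC of 7.79 in HT + Stroke and 7.84 in NT + Stroke, and HT + Stroke less NT + Stroke was −0.07 (SE 0.762). *Gfap* had 2.31 and 2.39 (difference −0.10, SE 0.434), *Trem2* 1.62 and 1.67 (−0.07, SE 0.365) and *Cd74* 3.01 and 3.16 (−0.17, SE 0.64). These standard errors leave room for differences in either direction, and equality was not shown. The spread of *Gfap* was 229 to 1360 CPM in HT + Stroke and 592 to 1050 CPM in NT + Stroke, so that no NT + Stroke library was as low as HT + Stroke libraries 1 and 6. Lower genes had smaller errors. *Sqle* was −0.47 in HT + Stroke and −0.51 in NT + Stroke (difference 0.03, SE 0.0816), *Snap25* −0.37 and −0.41 (0.03, SE 0.0733) and *Neurod2* −0.30 and −0.51 (0.20, SE 0.069, adjusted *P* = 0.654). Myelin genes had 0.57 and 0.30 for *Cnp* (0.26, SE 0.0819, adjusted *P* = 0.654) and 0.61 and 0.15 for *Opalin* (0.44, SE 0.191, adjusted *P* = 0.654).

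The 3 genes with the smallest *P* in HT + Stroke vs NT + Stroke were *Fos*, *Lysmd3* and *Klc3*. *Fos* was lower in HT + Stroke by 0.85 on the log2 scale (−0.85, SE 0.198), with 4.57 to 10.3 CPM in HT + Stroke and 10.3 to 18.9 CPM in NT + Stroke. *Klc3*, a kinesin light chain, was 5.19, 3.55, 5.05, 5.10, 3.69 and 3.42 CPM in HT + Stroke, 2.28 to 3.24 CPM in NT + Stroke and 1.50 to 3.18 CPM in NT + Sham (HT + Stroke less NT + Stroke 0.67, SE 0.159). *Klc3* was chosen by its *P* in this comparison, so its separation from NT + Stroke was part of that choice. Its call against NT + Sham was lost without HT + Stroke library 1, 3 or 4 or NT + Sham library 1, 4 or 5. *Lysmd3*, a membrane protein of the Golgi, was −0.51 (SE 0.122). All 3 had an adjusted *P* of 0.654.

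The combined effect was also compared with the sum of the separate effects of stroke and angiotensin II on the log2 scale, over all 24 libraries. Of 17608 genes tested, 0 departed from the sum (0%), the smallest adjusted *P* was 0.262 and 1836 had an unadjusted *P* under 0.05 in edgeR, whereas DESeq2 called 22 genes, 18 of them below the sum. The 3 genes with the smallest *P* in edgeR were *Plxdc1*, *Syt6* and *Vamp1*, with departures of 0.50 (SE 0.11), −0.82 (SE 0.181) and 0.40 (SE 0.089) and an adjusted *P* of 0.262 each. *Syt6* had a log2 fold change over NT + Sham of 0.30 in HT + Stroke, 0.66 in NT + Stroke and 0.45 in HT + Sham. *Gfap* departed by −0.71 (SE 0.529, adjusted *P* = 0.645) and *Gpnmb* by −1.99 (SE 1.09, adjusted *P* = 0.532), with log2 fold changes in HT + Sham of 0.62 and 1.66.

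**Figure D5:**
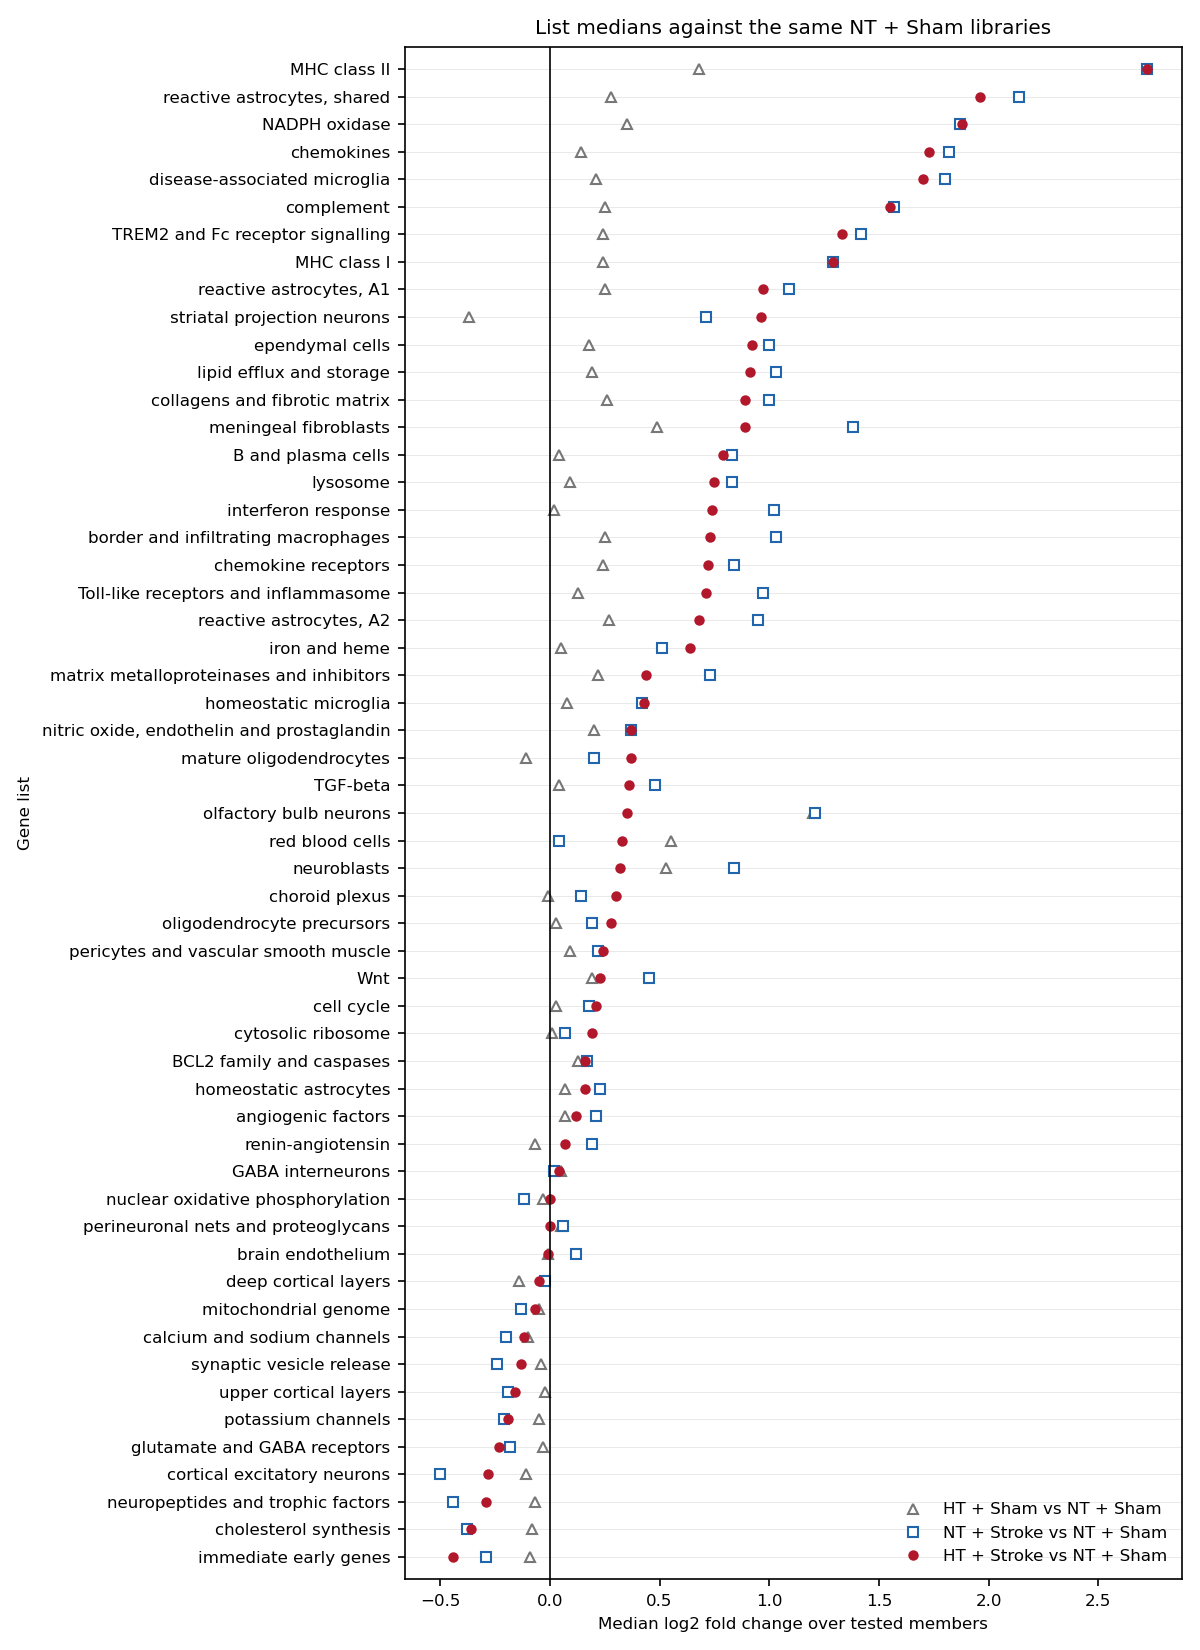
Median log2 fold change of the tested members of each list (lists with at least 5) in HT + Stroke (red circles), NT + Stroke (blue squares) and HT + Sham (grey triangles), each against the same NT + Sham libraries. The disease-associated microglia median is 1.70 in HT + Stroke, 1.80 in NT + Stroke and 0.21 in HT + Sham, and the olfactory bulb median is 0.35, 1.21 and 1.20.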

How the data were processed

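Raw counts per gene were made by the authors with featureCounts 1.5.0-p3 per the submitters' processing notes, which also name DESeq2 1.20.0, and were deposited together with FPKM values made by the authors. The aligner and genome build are not given in the sources used here. Of 31630 genes found in GENCODE M21 (GRCm38), 30844 (97.5%) had the same position in the files. The 56 columns of normalized counts and group means, and the authors' own fold changes, *P* values and adjusted *P* values, were not used.

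Counts of the 6 HT + Stroke and 6 NT + Sham libraries passed through filterByExpr of edgeR (at least 10 counts and 15 in total), scaled by TMM and compared with the quasi-likelihood test of edgeR 4.0.16 in R 4.3.3, with an adjusted *P* threshold of 0.05. HT + Stroke vs NT + Stroke and the departure from the sum of both effects were fitted likewise. Log2 CPM used a prior count of 2. Folds against groups at or under the floor used 3 counts per library, and floors cover counting error only. The method was tested on simulated data with 200 changed genes. Named genes were the 10 largest changes in each direction, without overlap between groups and with an average log2 CPM above 1, the 3 smallest *P* of the other fits and, per list, the first 2 genes listed and the 2 tested members with the smallest *P*. Other genes, mainly list members that did not pass, were chosen after their values were seen, and some genes are not reported here. The lists and members were chosen with earlier results of these data known. Promoters are RefSeq sequences of GRCm38.p6. Alternatives included other scalings and filters, DESeq2 1.42.0, limma 3.58.1 on log2(FPKM + 1), covariates, a block on the library number and leaving out each library.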

Additional observations from a re-analysis of the deposited data

Results flagged for a closer look

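Libraries that stood apart from the other 5 of their group (Dixon's criterion) were found in 13 of 232 sets of values tested, and chance gives about 1 in 20. In HT + Stroke, library 5 had 2.34 CPM of *Glra3* (3.55 to 4.05 in the other 5). Library 3 had 2620 CPM of *Mbp* (3030 to 3220), 162 CPM of *Omp* (1.02 to 52.9) and a nuclear oxidative phosphorylation score of −0.3 (0.01 to 0.15). Library 1 had a score of −0.08 for pericytes and vascular smooth muscle (0.23 to 0.37).

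In NT + Sham, library 2 had 0.432 CPM of *Cst7* (0 to 0.155), 1.35 CPM of *Cybb* (0.317 to 0.689) and 21.9 CPM of *Serpina3n* (17.3 to 18.2), and library 3 had 29.1 CPM of *Fos* (7.45 to 14.2). Library 4 had 7.3 CPM of *Cd68* (11.4 to 13.2), 1.5 CPM of *Klc3* (2.79 to 3.18), a score of 0.06 for calcium and sodium channels (−0.03 to 0) and of −0.4 for cell cycle genes (0.03 to 0.16).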

How the results depend on the processing

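The number of genes changed in HT + Stroke vs NT + Sham was 2470, and 1997 without scaling beyond total count, 2404 with upper-quartile scaling, 3247 with DESeq2, 2068 with all genes of at least 1 count, 2349 with at least 10 counts in every library, 1662 with limma on log2(FPKM + 1), 1807 with log2(FPKM + 0.1) and 3305 with all 4 groups in 1 fit. It ranged from 1362 to 2969 when 1 library was left out, lowest without HT + Stroke library 2 and highest without library 1. With the library number as a replicate block it was 770 (559 higher, 211 lower), with 160 list members called. With this block, 1 MHC class II gene, 0 lipid efflux genes and 3 collagen and fibrotic matrix genes were higher, against 5, 7 and 10 in the main fit. Striatal genes went the other way, with 7 against 2, as did B and plasma cell genes, with 1 against 0. Deviations of same-numbered libraries correlated at −0.36 to 0.2 and 2 of 12 libraries correlated best with their own number. With 6 libraries per group, this cannot decide whether same-numbered libraries shared a batch. With olfactory bulb and striatal scores as covariates 0 genes and 0 list members passed, 1745 genes had an unadjusted *P* under 0.05, and the log2FC of *Bpifa1* was −0.03, a change of sign. For these settings the cause was not tested. HT + Stroke vs NT + Stroke and the departure from the sum were refitted without scaling, with DESeq2, with all genes of at least 1 count, with the replicate block and with each library left out. The first gave 0 genes in each of these, and the second gave 22 genes in DESeq2 (4 higher, 18 lower) and 0 in the others. Depth limited the test of HT + Stroke vs NT + Sham to the 16749 genes that passed the filter on low counts.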
